A study of Homo sapiens with 6 samples.

Results

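Aminoacyl-tRNA synthetases are the enzymes that join each amino acid to its tRNA. They were followed here as 38 genes, named by symbol and found among the 78932 gene identifiers of every count table. The set held 19 genes for enzymes of the cytosol, 16 for enzymes that work in mitochondria and 3 for the scaffold proteins of the multisynthetase complex. GARS1 and KARS1 each serve both compartments and were counted with the cytosolic enzymes. All 38 symbols matched 1 identifier, and all 38 passed the filter on low counts.

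The libraries came from Karpas-45, an established human line of T-cell acute leukemia. The tested cells carried a hairpin named shMEF2CKD2, labelled as a MEF2C knockdown, and the control cells carried a scramble hairpin and were labelled wild type. Both groups were labelled untreated, received the hairpin by a lentivirus that also expressed GFP, and were sorted for GFP 120 hours after transduction. Each group held 3 libraries that the labels call technical replicates, from 1 line and 1 hairpin against MEF2C, and p-values therefore reflect the spread of technical repeats alone. MEF2C had 2, 0 and 0 reads in shMEF2CKD2 libraries 1 to 3 and 2, 1 and 0 reads in scramble libraries 1 to 3. These counts lay under the detection floor of 3 reads in both groups, so MEF2C mRNA was not detected in the control cells either. The targeted gene therefore could not check the labels, and a fall of its mRNA could not be seen.

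Most synthetases recognise a single amino acid and its tRNAs, and the cytosol and the mitochondrion mostly use separate nuclear genes for the same amino acid. In animal cells several cytosolic enzymes assemble with the scaffold proteins AIMP1, AIMP2 and EEF1E1 into the multisynthetase complex. When charged tRNA runs short, the kinase EIF2AK4, with its partner GCN1, phosphorylates the translation factor eIF2, which favours translation of the transcription factor ATF4. ATF4 binds a composite DNA element, called the CARE, in genes of amino acid uptake, amino acid synthesis and tRNA charging.

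Gene reads per library ran from 45560303 to 97077335, and the detection floor of 3 reads stood for at most 0.0658 CPM, the count of a gene scaled to a common library size. Multi-mapped reads made up 3.82, 3.56 and 16.1% in shMEF2CKD2 libraries 1 to 3 and 3.67, 4.19 and 6.86% in scramble libraries 1 to 3. Markers of T cells summed to 2430 to 2477 CPM in shMEF2CKD2 libraries and 2331 to 2386 CPM in scramble libraries. Of these 8 markers 6 were higher with shMEF2CKD2 in the edgeR test described below, against 13.5% of all tested genes. They were CD3D, CD3G, CD5, CD7, LCK and CD2, with rises from 5.92% in LCK to 113% in CD5. The CD2 call, at overlapping groups, held in 9 of the 15 alternative settings. The part of these markers in the results was not tested. The markers of B, myeloid, NK and erythroid cells each summed to at most 5.95 CPM in any library. In such bulk libraries, fewer cells of a type and less RNA per cell cannot be told apart.

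The CARE was looked for in the RefSeq promoters (GRCh38.p14) of 33 members, each running from 250 bases before to 50 bases after a transcription start. The letters searched were TGATGNAAN on both strands. They occurred in 7 of 16 cytosolic members, in 1 of 14 mitochondrial members and in 0 of 3 scaffold members, against 4.45% of all 27305 genes with a promoter. YARS1, VARS1, LARS1, VARS2 and AARS2 had no promoter in the table. The 8 matching stretches are shown because they are the letters these genes share, on the strand that carries the match, with the match in capitals and 10 bases on each side.
AARS1 (chr16:70289676-70289704, plus strand): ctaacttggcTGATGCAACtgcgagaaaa
CARS1 (chr11:3057408-3057436, plus strand): tcctagaatcTGATGCAACcgccgccccg
GARS1 (chr7:30594834-30594862, minus strand): gctcggagcaTGATGAAATcgccgcgtaa
IARS1 (chr9:92293693-92293721, plus strand): cgcacggaggTGATGCAACgcgctgaaaa
MARS1 (chr12:57488053-57488081, minus strand): aatccctcgcTGATGCAACcggaaccggc
NARS1 (chr18:57621804-57621832, minus strand): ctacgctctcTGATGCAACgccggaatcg
TARS1 (chr5:33440956-33440984, minus strand): ctggaccagcTGATGCAATcgaaaggcgc
YARS2 (chr12:32756076-32756104, minus strand): tccacactgcTGATGGAAAaattaagttt

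AARS1, CARS1, IARS1, MARS1 and NARS1 share the letters TGATGCAAC, and TARS1 has TGATGCAAT, which 0.293% of all genes with a promoter hold. In the cytosolic members other than NARS1 the match read along the strand opposite to the gene. The matches in CARS1, GARS1, IARS1, MARS1, NARS1 and TARS1 began between 34 bases before and 14 bases after a start, and that in AARS1 began 188 bases before it. A second motif, the E-box CACGTG, occurred in IARS1, in CARS2, EARS2 and MARS2, and in AIMP2, against 8.77% of all genes with a promoter. A match describes these letters and is no evidence that a factor binds there.

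The question was whether the hairpin against MEF2C went with a change in these genes. The mRNAs of most cytosolic enzymes were slightly less abundant in shMEF2CKD2 cells: 11 of 19 were lower, 1 was higher and 7 did not pass the test. The test was edgeR's quasi-likelihood test over 17677 genes with an adjusted p threshold of 0.05, which called 15.3% of all tested genes lower and 13.5% higher. Of the 16 mitochondrial enzymes 1 was lower and 15 did not pass, and of the 3 scaffold genes AIMP1 was lower. That made 14 of 38 members called, against 28.8% of all tested genes. The 13 falls ran from 4.02% in IARS1 to 16.7% in GARS1, with a median of 8.13%. For 8 members, GARS1, VARS1, RARS1, SARS1, EPRS1, KARS1, FARSA and AIMP1, the call held under all 15 alternative settings.

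**Figure D1:**
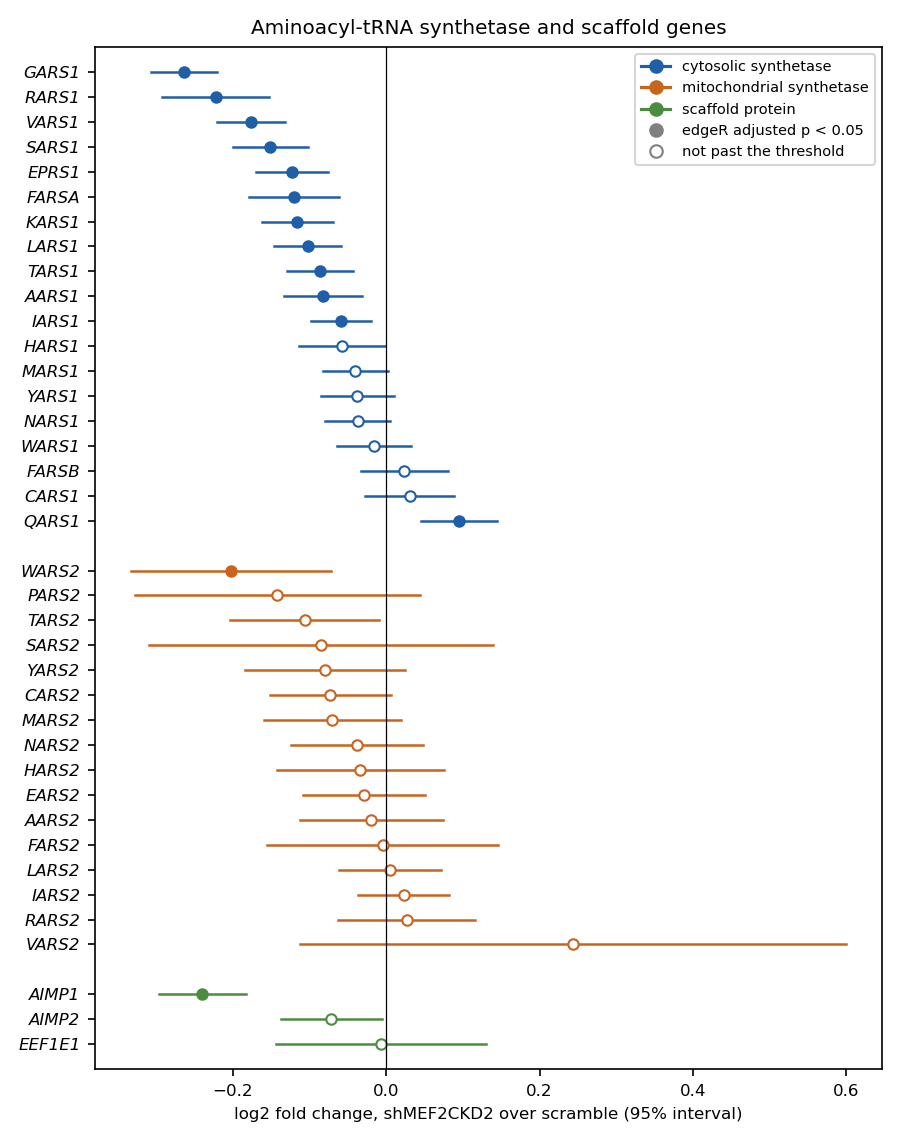
Log2 fold change (shMEF2CKD2 over scramble) of the 38 members, with 95% intervals from the edgeR fit, by compartment, with filled circles for those past the threshold. GARS1 lies lowest at -0.26 among the cytosolic enzymes, and the intervals of the mitochondrial enzymes are wider.

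Summed over the 19 cytosolic members, the level was 4231, 4228 and 4199 CPM in shMEF2CKD2 libraries and 4471, 4499 and 4480 CPM in scramble libraries. The groups did not overlap, and the summed level was 5.88% lower in shMEF2CKD2 cells. The median log2 fold change of the cytosolic members was -0.08, against 0.00 over all tested genes and -0.05 over genes of at least 100 CPM. Under cyclic loess scaling, which removes trends with level, it was -0.03.

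Genes were called lower more often the higher their level. Among all tested genes, 3.76% of those under 20 CPM, 23.5% of those between 20 and 100 CPM and 44.9% of those of at least 100 CPM were lower in shMEF2CKD2 cells. Of the 16 cytosolic members of at least 100 CPM, 9 were lower, close to that background, and 1 was higher, against 12.6% of genes at that level (57.4% were called in either direction). Of the 3 between 20 and 100 CPM, FARSA and RARS1 were lower. In terms of separation, 14 of 19 cytosolic members had lower values in every shMEF2CKD2 library than in any scramble library, against 20.5% of all tested genes and 49.4% of those of at least 100 CPM. Over all 38 members the groups were separate in 24, in either direction, against 39.9% of all tested genes.

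**Figure D2:**
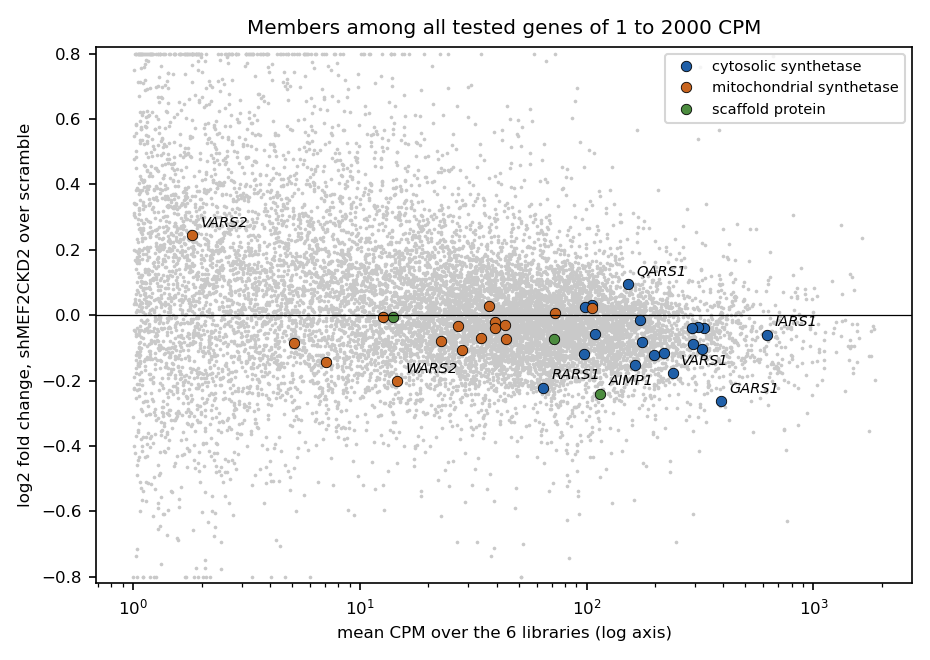
Log2 fold change against mean level (CPM, log axis) for all tested genes between 1 and 2000 CPM and for the members, with values beyond 0.8 in either direction drawn at that edge. Most cytosolic members lie to the right of the mitochondrial ones, where the median of all genes of at least 100 CPM is -0.05.

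GARS1, the glycyl-tRNA synthetase, had the largest fall. It had 356, 349 and 363 CPM in shMEF2CKD2 libraries and 434, 421 and 427 CPM in scramble libraries. Every shMEF2CKD2 library lay below every scramble library, and the log2 fold change was -0.26 (SE 0.0211, adjusted p = 1.3e-12 by edgeR). The gene (ENSG00000106105.15) lies on the plus strand of chromosome 7 from 30594681 to 30634033 in GRCh38. Among genes of at least 100 CPM, its fold change stood at percentile 3.10.

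RARS1, the arginyl-tRNA synthetase and a member of the multisynthetase complex, had 60.1, 59.3 and 58.4 CPM in shMEF2CKD2 libraries and 67.5, 72.1 and 68.0 CPM in scramble libraries. The groups were separate, with a log2 fold change of -0.22 (SE 0.0344, adjusted p = 2.94e-06 by edgeR). VARS1, the valyl-tRNA synthetase, had 226, 223 and 223 CPM in shMEF2CKD2 libraries and 252, 253 and 257 CPM in scramble libraries. Its log2 fold change was -0.18 (SE 0.0219, adjusted p = 3.78e-08 by edgeR), and the gap between the groups was larger than the spread within either.

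SARS1, the seryl-tRNA synthetase, had 156, 156 and 152 CPM in shMEF2CKD2 libraries and 170.1, 174 and 172 CPM in scramble libraries, without overlap. Its log2 fold change was -0.15 (SE 0.0240, adjusted p = 4.55e-06 by edgeR). FARSA, the catalytic subunit of phenylalanyl-tRNA synthetase, had 93.8, 93.8 and 92.6 CPM in shMEF2CKD2 libraries and 97.9, 103 and 104 CPM in scramble libraries. The groups were again separate (log2 fold change -0.12, SE 0.0289, adjusted p = 0.00135 by edgeR). Its partner FARSB, the other subunit, averaged 99.2 ± 1.10 CPM in shMEF2CKD2 cells and 97.6 ± 1.72 CPM in scramble cells (SD, n = 3 each). FARSB did not pass the edgeR test (log2 fold change 0.02, adjusted p = 0.595), and the difference between the subunits was not tested.

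Within the complex, EPRS1 carries the glutamyl and prolyl activities in 1 protein. It had 188, 189.5 and 192 CPM in shMEF2CKD2 libraries and 211, 205 and 205 CPM in scramble libraries. The groups did not overlap (log2 fold change -0.12, SE 0.0232, adjusted p = 6.85e-05 by edgeR). KARS1, the lysyl-tRNA synthetase, had 208, 215 and 207 CPM in shMEF2CKD2 libraries and 228, 227 and 227 CPM in scramble libraries. It too was lower without overlap (log2 fold change -0.12, SE 0.0227, adjusted p = 0.000111 by edgeR).

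LARS1, the leucyl-tRNA synthetase, had 311, 318 and 308 CPM in shMEF2CKD2 libraries and 329, 341 and 336 CPM in scramble libraries. TARS1, the threonyl-tRNA synthetase, had 283, 291 and 284 CPM in shMEF2CKD2 libraries and 306, 302 and 304 CPM in scramble libraries. Both were lower without overlap, at -0.10 and -0.09 on the log2 scale with edgeR adjusted p-values of 0.000298 and 0.00157. Under cyclic loess neither call held, with adjusted p = 0.184 for LARS1 and 0.423 for TARS1.

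The falls of AARS1 and IARS1, the alanyl- and isoleucyl-tRNA synthetases, were the least stable. AARS1 averaged 169.6 ± 3.97 CPM in shMEF2CKD2 cells and 179.6 ± 4.36 CPM in scramble cells (adjusted p = 0.0103 by edgeR). That call was lost under cyclic loess and without shMEF2CKD2 library 3, scramble library 2 or scramble library 3, and its adjusted p over the alternatives ran from 6.62e-05 to 0.370. IARS1, at 608 ± 3.80 CPM in shMEF2CKD2 cells and 633 ± 6.92 CPM in scramble cells, had a log2 fold change of -0.06 (adjusted p = 0.0174 by edgeR) that turned to 0.02 under cyclic loess. Its call was also lost under upper-quartile scaling, with no filter, and without shMEF2CKD2 library 2 or scramble library 1, with adjusted p from 0.00311 to 0.458.

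QARS1, the glutaminyl-tRNA synthetase and another enzyme of the complex, was the single member called higher. It had 159, 158 and 154 CPM in shMEF2CKD2 libraries and 146, 149 and 147 CPM in scramble libraries. Every shMEF2CKD2 library lay above every scramble library (log2 fold change 0.10, SE 0.0245, adjusted p = 0.00249 by edgeR). After correction for GC content and exon length the log2 fold change was 0.05 and the call was lost (adjusted p = 0.0717).

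**Figure D3:**
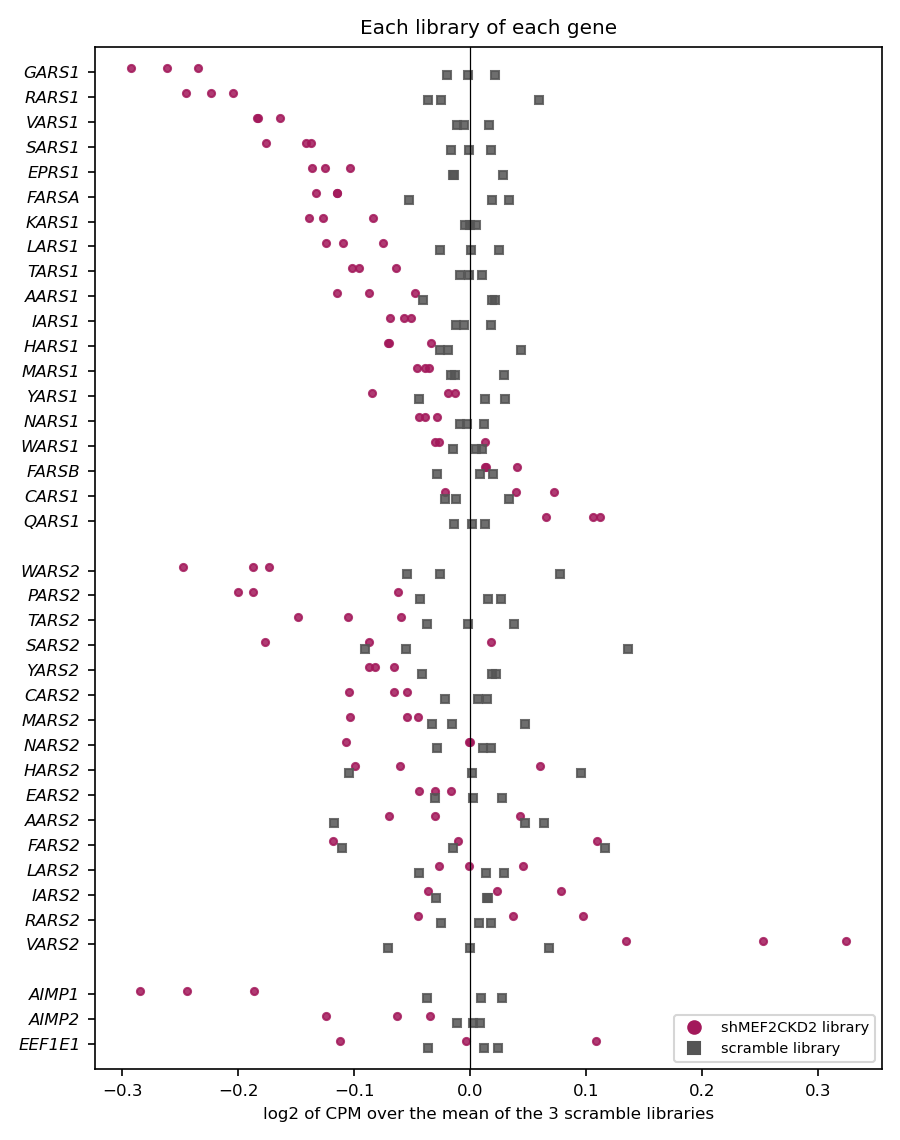
Log2 of the CPM of each library over the mean of the 3 scramble libraries, for the 38 members, with shMEF2CKD2 libraries as circles above scramble libraries as squares. The shMEF2CKD2 points lie left of the scramble points for GARS1 (356 ± 7.16 CPM with shMEF2CKD2, 427 ± 6.21 CPM with scramble) and right of them for QARS1 (157 ± 2.73 CPM with shMEF2CKD2, 147 ± 1.37 CPM with scramble).

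The other 7 cytosolic enzymes, HARS1, MARS1, NARS1, YARS1, WARS1, FARSB and CARS1, did not pass, and their 95% intervals together spanned log2 fold changes of -0.11 to 0.09. In HARS1, MARS1 and NARS1 the shMEF2CKD2 libraries still all lay below the scramble libraries, with edgeR adjusted p-values of 0.126, 0.166 and 0.197. MARS1, NARS1, YARS1 and WARS1 had log2 fold changes of -0.04, -0.04, -0.04 and -0.02, which under cyclic loess were 0.02, 0.03, 0.02 and 0.03. After correction for GC content and exon length MARS1 and YARS1 were instead called lower, both at -0.07 (adjusted p = 0.00692 for MARS1 and 0.0053 for YARS1 by edgeR). MARS1 shares 13.3% of its exonic bases with other genes, DDIT3 among them.

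By structural class, 4 of the 9 cytosolic class I enzymes were lower and 1 was higher, with a median log2 fold change of -0.04. Of the 9 class II enzymes 6 were lower, with a median of -0.09, and EPRS1, which holds both classes, was left out. Of the 7 enzymes in the complex 5 were lower and 1 was higher (median -0.10), and of the 12 outside it 6 were lower (median -0.07). Of all tested genes 15.3% were lower and 13.5% higher, and of those of at least 100 CPM 44.9% and 12.6%. At that level 3 of 8 class I and 5 of 7 class II enzymes were lower. In the complex it was 4 of 6, and outside it 5 of 10. None of these subsets was tested against the other.

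Among the scaffold proteins, AIMP1, which also gives rise to the secreted cytokine EMAP II, had 102, 104 and 109 CPM in shMEF2CKD2 libraries and 126, 121 and 125 CPM in scramble libraries. The groups were widely separate (log2 fold change -0.24, SE 0.0282, adjusted p = 1.38e-08 by edgeR). AIMP2 had 70.3, 71.7 and 67.4 CPM in shMEF2CKD2 libraries and 73.6, 72.9 and 73.9 CPM in scramble libraries. Its groups did not overlap either, but it did not pass (log2 fold change -0.07, adjusted p = 0.0982 by edgeR). EEF1E1 had 15.1, 13.0 and 14.0 CPM in shMEF2CKD2 libraries and 14.3, 13.7 and 14.1 CPM in scramble libraries, with overlapping groups (adjusted p = 0.960 by edgeR). AIMP1, AIMP2 and EEF1E1 share 11.6%, 28.9% and 18.7% of their exonic bases with other genes, where the counting may leave reads out.

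The mitochondrial enzymes charge tRNAs for the few proteins made inside the organelle. Their summed level was 529, 521 and 539 CPM in shMEF2CKD2 libraries and 534, 543 and 542 CPM in scramble libraries. These groups overlapped, and the means, 529.7 ± 8.85 CPM with shMEF2CKD2 and 539.8 ± 5.22 CPM with scramble, differed by 1.88%. The median log2 fold change was -0.04, with 12 negative and 4 positive values. It was -0.06 without shMEF2CKD2 library 1, -0.02 without shMEF2CKD2 library 2, -0.06 without scramble library 3 and -0.07 after correction for GC content and exon length.

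WARS2, the mitochondrial tryptophanyl-tRNA synthetase, was the 1 member called. It had 13.8, 13.7 and 13.1 CPM in shMEF2CKD2 libraries and 15.3, 15.0 and 16.4 CPM in scramble libraries. The groups did not overlap (log2 fold change -0.20, SE 0.0644, adjusted p = 0.0149 by edgeR). The call was lost without shMEF2CKD2 library 3 and without scramble library 3, and its adjusted p over the alternatives ran from 0.00604 to 0.101. No mitochondrial member was higher by edgeR, where 0 had an unadjusted p under 0.05 with a positive fold change, and DESeq2 and limma-voom called 0 as well.

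Of the uncalled members, PARS2, TARS2, YARS2, CARS2 and MARS2 lay lower in every shMEF2CKD2 library than in any scramble library. With WARS2, 6 of the 16 mitochondrial members were separate and lower, against 20.5% of all tested genes. In either direction 7 of the 16 were separate, against 39.9% of all tested genes. Neither share was matched for level, and 10 of the 16 members lay between 20 and 100 CPM. TARS2, the nearest to the threshold, had 26.3, 27.1 and 27.9 CPM in shMEF2CKD2 libraries and 29.9, 28.4 and 29.1 CPM in scramble libraries (log2 fold change -0.11, adjusted p = 0.0965 by edgeR). VARS2 alone lay higher without overlap, at 1.97 ± 0.130 CPM in shMEF2CKD2 cells and 1.67 ± 0.0804 CPM in scramble cells (adjusted p = 0.337 by edgeR). FARS2, LARS2, AARS2, IARS2 and RARS2 stood closest to 0, with log2 fold changes from -0.02 to 0.03.

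The smaller count of calls does not show that the mitochondrial enzymes differ from the cytosolic ones. Their standard errors had a median of 0.0470, against 0.0234 for the cytosolic enzymes, and 12 of the 15 uncalled members had a 95% interval that held the cytosolic median of -0.08. In 7 of these 15 the log2 fold change was at least as large in size as the smallest cytosolic one that was called, 0.06. Of the 10 mitochondrial members between 20 and 100 CPM 0 were called by edgeR, while 40.4% of all tested genes at that level were called in either direction. The cytosolic median minus the mitochondrial median was -0.05. It was -0.02 without shMEF2CKD2 library 1, -0.01 without shMEF2CKD2 library 3, -0.02 without scramble library 3, -0.01 after correction for GC content and exon length, and 0.02 under cyclic loess.

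Levels between genes were compared as CPM per kilobase of exon in scramble cells. The cytosolic members had a median of 41.3 CPM per kilobase, from 10.4 in CARS1 to 103 in GARS1. The mitochondrial members had a median of 7.51 CPM per kilobase, from 0.197 in VARS2 to 25.2 in IARS2. SARS2 and VARS2, the lowest, share 57.0% and 22.0% of their exonic bases with other genes.

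For 13 amino acids both a cytosolic and a mitochondrial gene were among the members. The cytosolic level per kilobase was higher in 13 of 13 pairs, with ratios from 1.41 for arginine to 211 for valine and a median of 4.09. The cytosolic fold change was the more negative in 7 of the 13, and the median difference between the log2 fold changes was -0.02. The cytosolic enzyme was called lower in 7 pairs, the mitochondrial one in the tryptophan pair, and both in 0 pairs. Of all tested genes 15.3% were lower. The cytosolic enzymes of these pairs other than RARS1 were of at least 100 CPM, where 44.9% of tested genes were lower. The mitochondrial ones other than IARS2 were under that level, where 23.5% (20 to 100 CPM) and 3.76% (under 20 CPM) were lower. The extremes were valine, at -0.18 for VARS1 and 0.24 for VARS2, and tryptophan, at -0.02 for WARS1 and -0.20 for WARS2. These differences were not tested pair by pair.

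**Figure D4:**
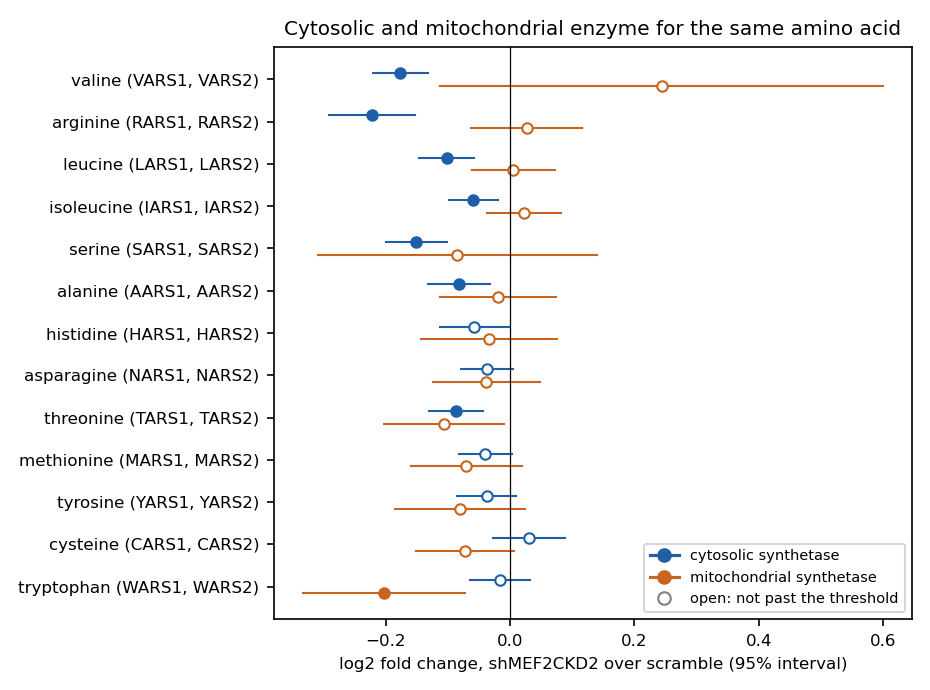
Log2 fold change (shMEF2CKD2 over scramble) of the cytosolic and the mitochondrial enzyme for each of the 13 amino acids with a gene for either compartment, with 95% intervals and filled circles for those past the threshold. The arginine pair shows -0.22 for RARS1 and 0.03 for RARS2, and the asparagine pair lies together at -0.04 for both enzymes.

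HARS1 and HARS2 lie head to head, with starts 85 bases apart on chromosome 5. HARS1 averaged 106 ± 1.56 CPM in shMEF2CKD2 cells and 111 ± 2.95 CPM in scramble cells, and HARS2 26.7 ± 1.55 CPM in shMEF2CKD2 cells and 27.3 ± 1.88 CPM in scramble cells. Neither passed the edgeR test, with adjusted p-values of 0.126 for HARS1 and 0.701 for HARS2. HARS1 and HARS2 share 8.38% and 15.8% of their exonic bases with other genes, each other among them. There the counting may leave reads out.

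Partners of charging in the cytosol include factors that export, trim and carry tRNA. Of 10 listed genes 9 were tested, and 4 were lower by edgeR, against 15.3% of all tested genes. Of the 4 partners of at least 100 CPM 3 were lower, against 44.9% of tested genes at that level. By edgeR 0 were higher, against 13.5% of all tested genes. There 0 had an unadjusted p under 0.05 with a positive fold change, and DESeq2 and limma-voom called 0 higher. Under cyclic loess EEF1A1 and EEF1D were called higher, EEF1D at a log2 fold change of 0.11 (adjusted p = 0.00048 by limma) against 0.04 as fitted (adjusted p = 0.231 by edgeR). XPOT, which exports tRNA from the nucleus, averaged 426 ± 12.0 CPM in shMEF2CKD2 cells and 447 ± 7.23 CPM in scramble cells (adjusted p = 0.0117 by edgeR). EEF1B2, a nucleotide exchange factor of elongation, averaged 363 ± 8.04 CPM in shMEF2CKD2 cells and 380.0 ± 4.37 CPM in scramble cells (adjusted p = 0.0164 by edgeR). The log2 fold changes of XPOT and EEF1B2, both -0.07, were 0.00 under cyclic loess. ELAC1, a tRNA nuclease, was lower with overlapping groups, at 5.47, 6.97 and 5.38 CPM in shMEF2CKD2 libraries and 6.96, 8.09 and 6.77 CPM in scramble libraries (adjusted p = 0.0497 by edgeR). The ELAC1 call was lost in 9 of the 15 alternatives, among them DESeq2, limma-voom and 4 of the 6 that leave out a library. EEF1A1, the elongation factor that carries charged tRNA to the ribosome, averaged 7173 ± 19.6 CPM in shMEF2CKD2 cells and 7395 ± 55.0 CPM in scramble cells. Its log2 fold change of -0.04 (adjusted p = 0.0279 by edgeR) turned under cyclic loess to 0.08, past the threshold in the other direction (adjusted p = 6.13e-07 by limma). The EEF1A1 call was lost in 9 further alternatives, so no direction is drawn for it. Without shMEF2CKD2 library 1, without shMEF2CKD2 library 3, without scramble library 1 and without scramble library 2 only 1 of the partners was called lower, and without shMEF2CKD2 library 2 the number was 2.

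Among 7 partners of mitochondrial charging and elongation, 2 were lower, and both belong to the amidotransferase that makes glutaminyl-tRNA in mitochondria. Of all tested genes 15.3% were lower, and 23.5% of those between 20 and 100 CPM, the level of both. QRSL1 had 66.1, 67.3 and 63.8 CPM in shMEF2CKD2 libraries and 74.2, 69.9 and 73.4 CPM in scramble libraries. GATC had 51.0, 51.7 and 51.8 CPM in shMEF2CKD2 libraries and 57.2, 55.8 and 59.3 CPM in scramble libraries. Both were separate between the groups, at log2 fold changes of -0.14 (SE 0.0337, adjusted p = 0.00125 by edgeR) and -0.16 (SE 0.0362, adjusted p = 0.000746 by edgeR). GATC shares 47.6% of its exonic bases with other genes, and the third subunit, GATB, did not pass (log2 fold change 0.02, adjusted p = 0.785 by edgeR).

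In the genes of amino acid sensing and of the ATF4 programme, TRIB3, SESN2, PSAT1 and SLC7A5 had log2 fold changes beyond that of GARS1. Of 15 listed genes 9 were lower and 2 were higher, against 15.3% and 13.5% of all tested genes. Of the 8 listed genes of at least 100 CPM 6 were lower, against 44.9% of tested genes at that level. The median over the list was -0.12 on the log2 scale. ASNS, CHAC1, DDIT3 and VLDLR, all reported targets of this pathway, did not pass, with edgeR adjusted p-values of 0.756, 0.765, 0.676 and 0.614. ASNS and DDIT3 share 44.6% and 39.6% of their exonic bases with other genes, where the counting may leave reads out. ASNS averaged only 1.13 CPM in shMEF2CKD2 cells and 1.23 CPM in scramble cells (log2 fold change -0.12, SE 0.223). With so wide an error, an absence of change in ASNS was not shown. TRIB3, a pseudokinase that restrains ATF4, had 64.4, 64.3 and 63.6 CPM in shMEF2CKD2 libraries and 99.8, 101 and 96.5 CPM in scramble libraries. The groups lay far apart (log2 fold change -0.63, SE 0.0305, adjusted p = 1.06e-18 by edgeR).

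SESN2, a leucine sensor upstream of mTORC1, had 55.9, 56.6 and 51.1 CPM in shMEF2CKD2 libraries and 75.2, 75.4 and 74.0 CPM in scramble libraries (log2 fold change -0.45, adjusted p = 9.88e-13 by edgeR). PSAT1, an enzyme of serine synthesis, had 259, 257 and 255 CPM in shMEF2CKD2 libraries and 328, 326 and 332 CPM in scramble libraries (log2 fold change -0.35, adjusted p = 4.25e-16 by edgeR). SLC7A5, a transporter of large neutral amino acids, had 757, 758 and 762 CPM in shMEF2CKD2 libraries and 958, 965 and 949.9 CPM in scramble libraries (log2 fold change -0.34, adjusted p = 3.87e-17 by edgeR). In each of these the libraries of the groups lay far apart relative to their spread.

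SLC7A11, the cystine transporter, ATF4, EIF2AK4 and the remaining lower genes of the list are named after their values were seen. SLC7A11 was higher, at 144 ± 2.64 CPM in shMEF2CKD2 cells and 129 ± 3.06 CPM in scramble cells (log2 fold change 0.16, SE 0.0259, adjusted p = 9.16e-06 by edgeR). ATF4 averaged 654 ± 3.17 CPM in shMEF2CKD2 cells and 735 ± 20.6 CPM in scramble cells (log2 fold change -0.17, SE 0.0203, adjusted p = 2.17e-08 by edgeR). EIF2AK4 averaged 63.6 ± 2.30 CPM in shMEF2CKD2 cells and 57.5 ± 0.381 CPM in scramble cells (log2 fold change 0.14, SE 0.0351, adjusted p = 0.00157 by edgeR). The remaining lower genes, PHGDH, SLC3A2, PSPH and GCN1, had log2 fold changes of -0.17, -0.15, -0.10 and -0.08. The GCN1 call was lost under cyclic loess, and the PSPH call held in 6 of the 15 alternatives. The calls of SLC7A11, ATF4, EIF2AK4, PHGDH and SLC3A2 held under all 15 alternatives. An mRNA level does not measure the translation or the activity of a protein.

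A listed set of cytosolic synthetases that are reported to be induced by ATF4 was set beside the others, with no test between them. Of its 12 members 7 were lower (median log2 fold change -0.07), and of the 7 others 4 were lower and 1 was higher (median -0.12). Of all tested genes 15.3% were lower and 13.5% higher. All 12 members were of at least 100 CPM, where 44.9% of tested genes were lower and the median was -0.05. Of the 7 others 4 were at that level, and 2 of these were lower. The 7 cytosolic members whose promoter held the letters printed above were all in that list, and so all of at least 100 CPM. Of these 7, AARS1, GARS1, IARS1 and TARS1 were lower (median -0.06), and of the 9 cytosolic members with a promoter and without the letters 5 were lower and 1 was higher (median -0.12).

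The 7-mers TTGAGAA and TGAGAAA, which marked lower genes in earlier results on these libraries, were rare in the members. The 3′ UTRs of FARSB and PARS2 held one, 2 of 37 members with a 3′ UTR, against 26.8% of 11883 tested genes. The share was not matched for the length of the 3′ UTR. The log2 fold changes of tested genes with and without these 7-mers had medians of -0.04 and 0.00. As the 7-mers came from results on these same libraries, that difference is not independent of them. The site that matches the hairpin's seed, GGAATGA, occurred in 0 of the 37, and its share over all tested genes is not given here.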

How the data were processed

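Per the labels' protocols, RNA was isolated with TRIzol and sequenced from TruSeq libraries. Trim Galore, STAR, HTSeq and hg38 are named in the submitters' processing notes, and versions, strand setting and annotation release are not given in the sources used here. The authors deposited raw read counts, 1 table per library, without normalization. The 5 summary lines that name no gene held 19.2% to 31.4% of reads and were left out.

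Genes were filtered with filterByExpr (minimum count 10), scaled by TMM and fitted with edgeR 4.0.16 under R 4.3.3 (quasi-likelihood, robust, no covariate). Fold changes are shMEF2CKD2 over scramble, their SE was derived from the F statistic, and p-values were adjusted by Benjamini-Hochberg over all 17677 tested genes. CPM use TMM-scaled library sizes for tested genes, and the total of gene reads for untested genes and for the detection floor. Identifiers were matched to symbols without version suffix (61481, or 77.9%). Exon lengths, overlaps and 3′ UTRs came from GENCODE 29, and promoters from RefSeq. Libraries of a group had a chi-square per gene of 3.31 to 4.50 between them, more than sampling noise, so none was a repeat deposit. Library values are given for the called members of lowest adjusted p (10 cytosolic, up to 6 mitochondrial), for the scaffold genes, and for up to 4 called genes of each other list. AARS1, IARS1 and the uncalled members are described beyond that rule.

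Alternatives were DESeq2 size factors, upper-quartile scaling, no filter, at least 1 CPM in at least 3 libraries, each library left out in turn, replicate number as a block, DESeq2 1.42.0, limma-voom (limma 3.58.1), cyclic loess, and a correction for GC content and exon length. The members and lists were chosen with earlier results of these data known.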

Additional observations from a re-analysis of the deposited data

How the results depend on the processing

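Over the 15 alternatives, 4113 to 5412 of all tested genes were called, against 5097 as reported. The number of cytosolic synthetases called lower was 10 to 11 when 1 library was left out, 7 under cyclic loess and 13 after GC content and exon length correction, where the number called higher was 0. Their median log2 fold change ran from -0.0814 to -0.0681 with 1 library left out and was -0.0250 under cyclic loess. For mitochondrial synthetases the number called lower was 0 to 1 with 1 library left out and 3 after GC content and exon length correction. Their median ran from -0.0614 to -0.0195 with 1 library left out and was -0.0654 after that correction, which also called 2 scaffold genes and 4 mitochondrial partners lower. The cytosolic minus the mitochondrial median was -0.0460 as reported, -0.0615 to -0.0147 with 1 library left out, 0.0161 under cyclic loess and -0.0107 after GC content and exon length correction. The number of cytosolic partners called lower was 2 under upper-quartile scaling, 1 without a filter, 2 with at least 1 CPM in at least 3 libraries, 1 under cyclic loess and 1 to 4 with 1 library left out. Under cyclic loess the sign turned for EEF1A1 (0.0767), which was called higher there (adjusted p = 6.13e-07 by limma), and for IARS1 (0.0193), EEF1B2 (0.00121) and XPOT (0.000587), which did not pass (adjusted p = 0.458, 0.976 and 0.989). The cause of these differences was not tested.

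Libraries that share a replicate number did not deviate together (correlations of -0.102, 0.0190 and 0.0327). No pairing by number was visible, though such correlations cannot exclude that these libraries were prepared together. With a replicate block 4892 genes and 11 cytosolic synthetases were called. Counting depth limits the lowest members, such as VARS2 and SARS2, and intervals cover counting and technical spread only.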
